A study of Homo sapiens with 4 samples.

Results

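RNA polymerase II (Pol II) was followed at 10 genes of the Hippo pathway's output, here called the YAP/TAZ target genes: CCN1, CCN2, ANKRD1, AMOTL2, AJUBA, LATS2, CRIM1, AXL, TEAD1 and YAP1. They were taken by name from 19974 protein-coding genes of chromosomes 1 to 22 and X. Each was examined from 20000 bp before its start to 20000 bp after its end, in RefSeq coordinates of GRCh38. The knockdown sample was U2OS cells transfected for 48 h with an siRNA against NKAP, a nuclear protein that binds RNA. The control sample was U2OS cells transfected for 48 h with a control siRNA, labelled NC. U2OS is a human osteosarcoma cell line. Pol II was measured by chromatin immunoprecipitation and sequencing (ChIP-seq) in 1 library of each, and the authors deposited 1 peak list per library. With 1 library a condition, no value below could be tested between them. An siRNA lowers a transcript, so Pol II at NKAP does not check the knockdown. NKAP had a peak at an end of the gene in both, with 13 reads at its summit in knockdown cells and 12 reads in control cells.

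The Hippo kinases MST and LATS phosphorylate the coactivators YAP and TAZ, which then stay in the cytoplasm. Unphosphorylated YAP and TAZ enter the nucleus and bind DNA through TEAD transcription factors, whose core site is GGAATG. Several of the genes that they switch on, such as LATS2 and AMOTL2, encode proteins that hold YAP back, so the pathway regulates itself through its targets. In bone-derived and other adherent cells the pathway is known for its response to cell density, stretch and the actin cytoskeleton.

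The promoters of 7 of the 10 genes stood in the RefSeq promoter table of GRCh38.p14, with 10 start sites among them. CCN1, CRIM1 and TEAD1 had no entry. The 250 bases before the start are printed below for the start sites at which these bases held the TEAD core and lay at least in part under a Pol II peak in both lists, to show where the core lies relative to the polymerase peaks measured here. Sequences run 5′ to 3′ on the strand of the gene, and capitals mark GGAATG or its reverse complement CATTCC. The CCN2 promoter is chr6:131951373-131951622 (minus strand), that of ANKRD1 is chr10:90921088-90921337 (minus strand), that of the second AMOTL2 start is chr3:134374448-134374697 (minus strand), that of the second AJUBA start is chr14:22976843-22977092 (minus strand), that of YAP1 is chr11:102110197-102110446 (plus strand) and that of the second AXL start is chr19:41226505-41226754 (plus strand).
CCN2: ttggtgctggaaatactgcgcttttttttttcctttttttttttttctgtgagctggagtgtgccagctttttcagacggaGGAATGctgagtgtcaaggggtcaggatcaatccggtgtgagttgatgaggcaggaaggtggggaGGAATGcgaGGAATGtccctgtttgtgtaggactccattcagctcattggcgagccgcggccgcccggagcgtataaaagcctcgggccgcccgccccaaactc
ANKRD1: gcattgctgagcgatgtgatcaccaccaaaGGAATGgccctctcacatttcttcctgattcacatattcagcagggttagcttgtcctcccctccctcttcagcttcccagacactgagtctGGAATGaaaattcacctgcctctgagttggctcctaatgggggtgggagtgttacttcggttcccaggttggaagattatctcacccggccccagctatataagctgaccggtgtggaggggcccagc
AMOTL2 (second start): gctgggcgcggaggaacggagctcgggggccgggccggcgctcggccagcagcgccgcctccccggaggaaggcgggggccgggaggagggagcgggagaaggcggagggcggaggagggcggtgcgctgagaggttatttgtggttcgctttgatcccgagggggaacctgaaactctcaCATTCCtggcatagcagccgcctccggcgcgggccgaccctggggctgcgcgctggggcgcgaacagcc
AJUBA (second start): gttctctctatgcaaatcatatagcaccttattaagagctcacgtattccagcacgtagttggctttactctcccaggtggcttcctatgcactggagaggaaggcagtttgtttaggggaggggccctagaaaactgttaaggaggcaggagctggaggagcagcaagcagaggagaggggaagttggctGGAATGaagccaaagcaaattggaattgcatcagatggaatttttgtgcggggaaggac
YAP1: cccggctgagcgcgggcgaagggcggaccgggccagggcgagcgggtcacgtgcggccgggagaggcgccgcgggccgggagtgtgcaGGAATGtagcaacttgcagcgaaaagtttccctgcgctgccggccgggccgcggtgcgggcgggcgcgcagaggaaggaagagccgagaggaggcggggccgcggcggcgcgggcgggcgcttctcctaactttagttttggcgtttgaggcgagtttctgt
AXL (second start): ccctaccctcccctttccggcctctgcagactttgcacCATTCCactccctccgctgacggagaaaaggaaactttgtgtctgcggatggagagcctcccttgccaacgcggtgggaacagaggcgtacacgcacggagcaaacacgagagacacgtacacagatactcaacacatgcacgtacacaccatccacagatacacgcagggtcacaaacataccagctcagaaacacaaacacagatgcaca

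The TEAD core was present 3 times before the CCN2 start, with first bases at −169, −104 and −95, counting the start as 0. It was present at −220 and −128 in ANKRD1, and once each at −69 in AMOTL2, −162 in YAP1 and −212 in AXL. AJUBA held it at −59 of its second start and not at its first. LATS2 held it only past its start, 9 bases in. Of the 22132 promoters of protein-coding genes in the table, 10.5% held at least 1 core in the same 250 bases on either strand, 0.755% held at least 2 and 0.0768% held at least 3. The pattern TGANTCA (N is any base), a loose form of the AP-1 site TGA(C/G)TCA, reads the same on both strands. It was present in ANKRD1 at −195 and in no other of the 10 windows, and 5.35% of promoters held it. The ANKRD1 match, TGATTCA, has a T in the middle, so none of the 10 windows held the stricter site. A CArG box, the site of serum response factor, was present in none of the 10 and in 1.18% of promoters. A match is a run of letters, and binding of TEAD was not measured here. In both lists peaks covered all 250 bases of the CCN2, ANKRD1, second AMOTL2, second AXL and YAP1 promoters. At the second AJUBA start they covered 208 of the 250 bases in knockdown cells and all 250 in control cells. The nearest knockdown summit there lay 234 bp before the start, with 14 reads. In control cells the cover came from a peak of 8142 bp whose summit lay 95 bp inside the first start. The nearest control summit lay 2595 bp inside the second start, with 13 reads. The AJUBA gene-end reads given below are at the first start.

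All 10 genes carried a Pol II peak at a gene end in knockdown and in control cells alike. A gene end here is the 1000 bp on either side of either end of the gene. The share over all protein-coding genes was 56.5% in the knockdown list and 59.9% in the control list. Of the 11956 genes with a control peak 91.9% also had a knockdown peak. The number of reads at each summit was solved from the deposited fold enrichment and p-value. At the median gene with a peak in both lists (10986 genes) the knockdown library had 0.773 times the reads of the control library, a shift of −0.37 on the log2 scale. The estimated depth ratio of the libraries was 0.857. Ratios below are given relative to the median gene, with a 95% exact binomial (Clopper-Pearson) interval that covers counting error only. By this measure 8 of the 10 genes were below the median gene, 2 of the 10 (ANKRD1 and AXL) were lower by 1.5 times or more and none was higher by 1.5 times. The gene-end peaks of AXL lay at different places in the knockdown and control lists. With the strongest peak in the gene only 1 of the 10 was lower by that much, as 4.74% of genes were. Of all genes 4.6% were lower by 1.5 times or more and 5.38% higher. Of the 520 genes with at least 100 control reads 9.23% were lower, but choosing genes by high control reads favours lower ratios.

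**Figure D1:**
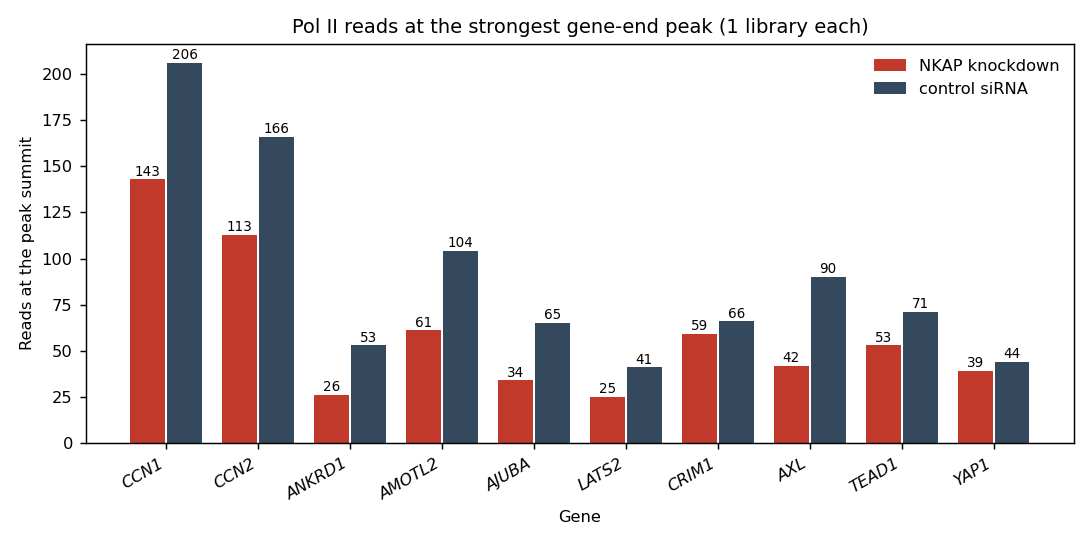
Reads at the summit of the strongest gene-end peak (vertical axis) of each gene, in NKAP knockdown (red, left) and control siRNA cells (dark, right), 1 library each and not scaled for depth. The knockdown bar is the shorter in all 10 genes, from 25 to 143 reads in knockdown cells and from 41 to 206 reads in control cells.

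CCN1 and CCN2, which encode secreted matricellular proteins and are the classical readouts of YAP activity, carried the most Pol II of the group in both libraries. CCN1 (chromosome 1, 85580761 to 85583950) had 143 reads at its summit in knockdown cells and 206 reads in control cells. Only 0.3% of genes with both peaks had as many reads in the knockdown list and 0.182% in the control list. Relative to the median gene its ratio was 0.898, or −0.15 on the log2 scale (−0.47 to 0.16). CCN2 (chromosome 6, 131948176 to 131951372) had 113 reads in knockdown cells and 166 reads in control cells. Its ratio was 0.881, or −0.18 (−0.54 to 0.17). Both intervals hold 0, so that no difference from the median gene was detectable at this depth. The interior of both short genes lay wholly under peaks in each list. The CCN2 summits lay 71 bp inside the start in knockdown cells and 59 bp inside it in control cells, just past the TEAD cores printed above. The CCN1 summits lay 77 bp (knockdown) and 34 bp (control) from its lower-coordinate end.

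The control peak of CCN1 ran over 10943 bp and its counterpart in knockdown cells was split. A knockdown peak of 6451 bp lay over CCN1, and a second of 2821 bp, with 54 reads, had its summit 3789 bp below the lower-coordinate end. The control peak and the second knockdown peak both reached over the higher-coordinate end of the neighbouring gene DDAH1, 2561 bp away, whose strand was not used. At CCN2 the peak was 5931 bp wide in knockdown cells and 6593 bp in control cells.

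The authors' fold enrichments at these genes lay much further apart than the reads. CCN2 had a fold of 15.1 in the knockdown list and 66.7 in the control list, and CCN1 33.3 in the knockdown list and 90.02 in the control list. The fold divides the summit by a local background, and which library it was taken from is not given in the sources used here. It was 6 reads (knockdown) and 1.50 reads (control) at CCN2, and 3.00 reads (knockdown) and 1.30 reads (control) at CCN1. AMOTL2 was alike, with folds of 14.4 (knockdown) and 46.1 (control) and backgrounds of 3.00 reads (knockdown) and 1.28 reads (control). The knockdown background was at least 2 times the control one at these 3 of the 10 genes, a cutoff chosen after the values were seen, and at 4.61% of all genes. At the median gene the background was 0.794 times that of the control list. The deposited folds at these genes therefore carry a difference in background as well as in reads, and its part in them beyond this arithmetic was not tested.

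ANKRD1, AMOTL2 and AJUBA had lower summit reads in knockdown cells and much less of their interiors under Pol II peaks. ANKRD1, a cardiac ankyrin-repeat protein gene and YAP target (chromosome 10, 90912096 to 90921087), had 26 reads at its gene-end summit in knockdown cells and 53 reads in control cells. Its ratio to the median gene was 0.635, or −0.66 (−1.39 to 0.05), and 3.4% of genes were at or below it. AMOTL2, an angiomotin family protein that binds YAP and restrains it (chromosome 3, 134355345 to 134375417), had 61 reads in knockdown cells and 104 reads in control cells, a ratio of 0.759 or −0.40 (−0.88 to 0.07). AJUBA, a LIM protein that inhibits LATS kinases (chromosome 14, 22971177 to 22982551), had 34 reads in knockdown cells and 65 reads in control cells, a ratio of 0.677 or −0.56 (−1.21 to 0.06). The 3 intervals reach just past 0. The AMOTL2 summits lay 8 bp (knockdown) and 160 bp (control) inside its second start, the one printed above, and not at the first.

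**Figure D2:**
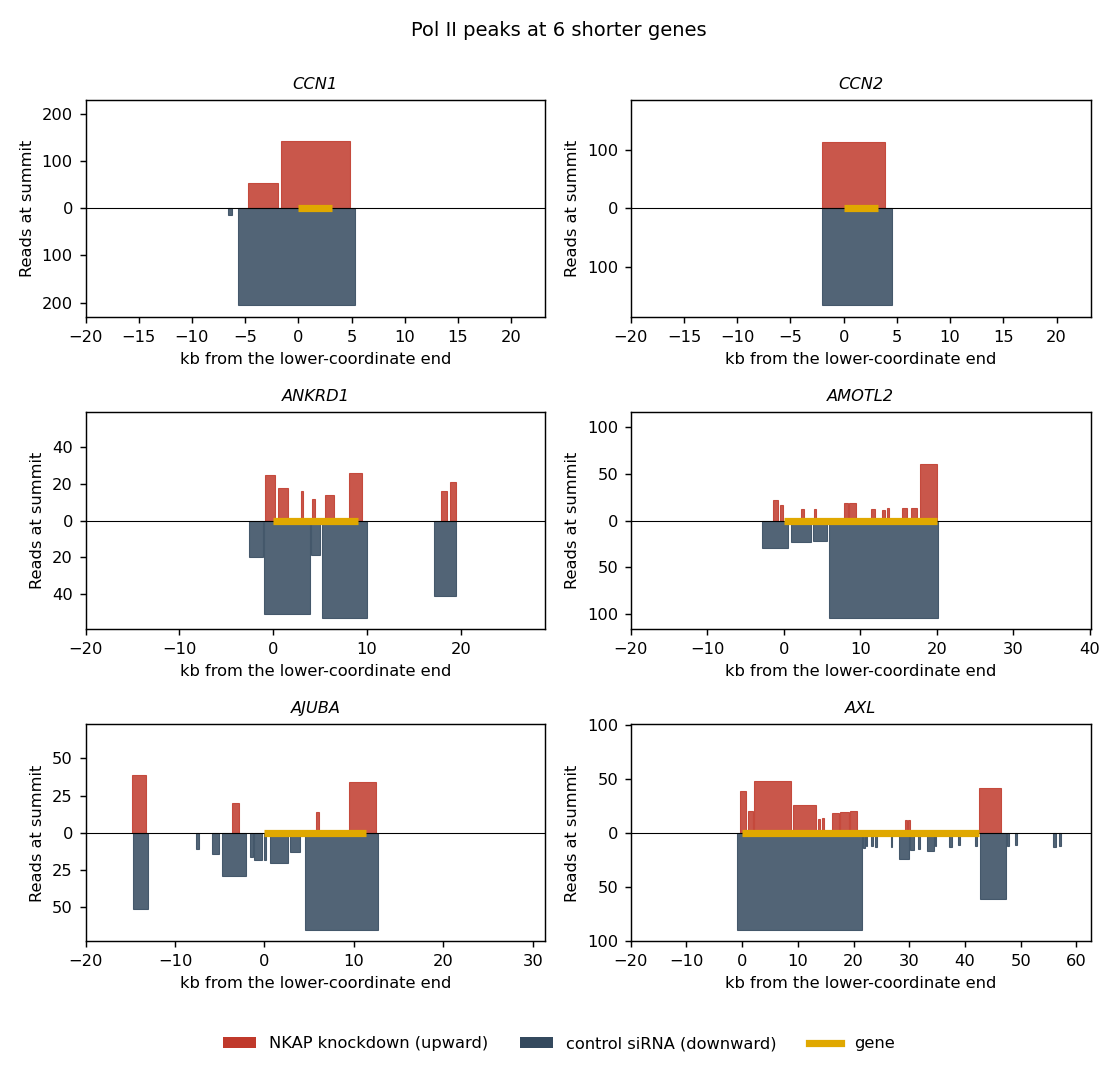
Pol II peaks around 6 genes, by distance in kb from the gene's lower-coordinate end (horizontal axis). Each block spans 1 deposited peak, knockdown upward and control downward, and its height is the reads at that peak's summit, not a profile; the yellow bar is the gene. The control block of 14266 bp over AMOTL2 faces 8 knockdown blocks, that of 8142 bp at AJUBA faces 2 and that of 22333 bp at AXL faces 9, while CCN2 has 1 block of about the same width in each.

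The interior is the sequence more than 1000 bp inside both ends. At AMOTL2 peaks covered 31.5% of it in knockdown cells and 97.8% in control cells. At ANKRD1 the values were 32.2% in knockdown cells and 94.5% in control cells, and at AJUBA 14.3% in knockdown cells and 92.0% in control cells. Over all genes with control interior cover, ratios of this size were common. Of these genes 47.4% had a ratio at or below that of ANKRD1 (0.340), 46.1% at or below that of AMOTL2 (0.322) and 37.2% at or below that of AJUBA (0.155). They were not matched for control cover. Among 62 genes with at least 90% control cover, a class chosen after the values were seen, 9.68%, 8.06% and 4.84% were at or below the knockdown cover of ANKRD1, AMOTL2 and AJUBA. The number of peaks did not follow the cover. A single control peak of 14266 bp on AMOTL2 stood against 8 knockdown peaks that held 42.2% of its length, the strongest with 61 reads. The 9 knockdown peaks with a summit in the interior, some of them under other control peaks, had 11 to 19 reads. AMOTL2 thus had 12 knockdown peaks in its window and 4 control peaks, but 7636 bp covered in knockdown cells and 22262 bp in control cells. AJUBA had 4 knockdown peaks and 10 control peaks. The strongest flank peak of AJUBA, with 39 reads in knockdown cells and 51 reads in control cells, lay at the higher-coordinate end of HAUS4. The strand of this neighbour was not used.

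AXL encodes a receptor tyrosine kinase of the TAM family and lies on chromosome 19 from 41219223 to 41261766. In control cells 1 peak of 22333 bp covered its first part, with 90 reads at a summit 7149 bp inside the first start and 383 bp before the second start. In knockdown cells 9 peaks held 78.9% of that length, and the strongest had 48 reads at a summit 6929 bp inside the first start. The ratio of these strongest peaks was 0.69 relative to the median gene, or −0.53 (−1.07 to −0.01), which is not lower by 1.5 times, as 4.74% of genes were by the same rule. By the rule for gene ends the knockdown value was 42 reads and the ratio 0.604, or −0.73 (−1.29 to −0.18). That knockdown summit lay 788 bp past the end of AXL, at the lower-coordinate end of HNRNPUL1, whose strand was not used. The strongest peaks within the gene therefore give the better matched pair. By the strongest peaks within the gene AXL was the only gene of the 10 whose interval left out 0, with an upper limit of −0.01. Its gene-end interval compares different places and adds no second measure. The 10 intervals were not adjusted for their number. Interior cover at AXL was 42.9% in knockdown cells and 66.6% in control cells.

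**Figure D3:**
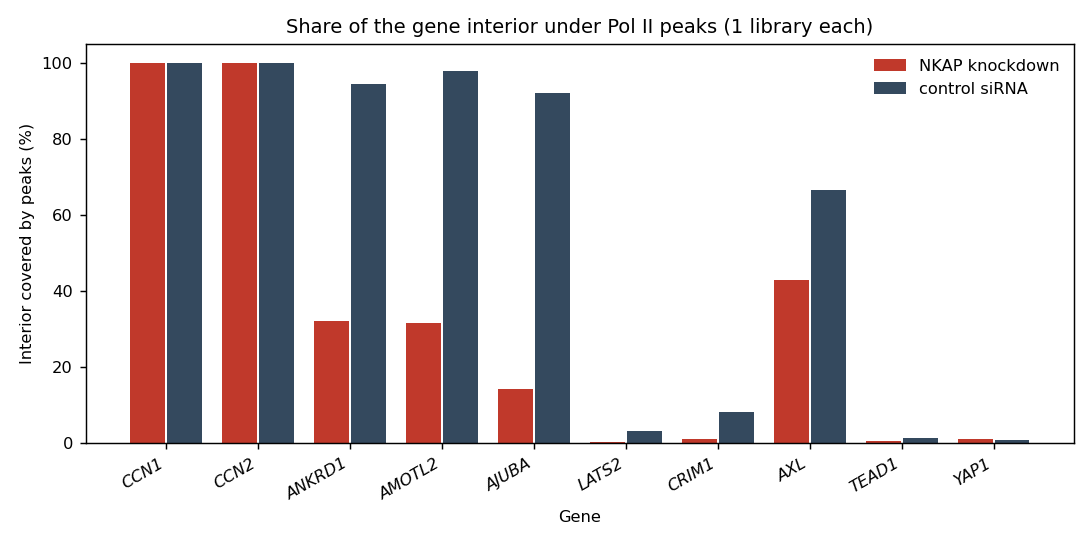
Percent of the gene interior under Pol II peaks (vertical axis) in NKAP knockdown (red, left) and control siRNA cells (dark, right), 1 library each. CCN1 and CCN2 are at 100% in both, ANKRD1, AMOTL2 and AJUBA are at 14.3% to 32.2% in knockdown cells and at 92.0% to 97.8% in control cells, and the 4 longest genes are under 10% in both.

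LATS2, the kinase that phosphorylates YAP (chromosome 13, 20973036 to 21061586), had its start peak in both lists and no other peak in knockdown cells. The summit had 25 reads in knockdown cells and 41 reads in control cells, a ratio of 0.789 or −0.34 (−1.12 to 0.41). The 3 interior peaks of the control list, with 13 to 16 reads, and the weak peak near its 3′ end, with 11 reads, had no knockdown peak on them. The lowest summits called had 8 reads in each list, so that peaks as weak as these stand near the limit of detection.

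CRIM1, a transmembrane protein with cysteine-rich repeats (chromosome 2, 36355778 to 36551135), had nearly the same Pol II at its lower-coordinate end in both libraries but few peaks along the gene in knockdown cells. The end peak had 59 reads in knockdown cells and 66 reads in control cells, a ratio of 1.16 or 0.21 (−0.32 to 0.74). In the interior the knockdown list had 2 peaks, of 13 and 16 reads, and the control list 27 peaks of 8 to 22 reads, of which 1 was overlapped. Interior cover was 1996 bp in knockdown cells and 15897 bp in control cells. The 3 knockdown and 7 control peaks of its flank all lay past its higher-coordinate end, over the neighbour FEZ2.

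TEAD1 and YAP1, the DNA-binding factor and the coactivator themselves, were close to the median gene at their ends. TEAD1 (chromosome 11, 12674421 to 12944737) had 53 reads in knockdown cells and 71 reads in control cells, a ratio of 0.966 or −0.05 (−0.59 to 0.48). YAP1 (chromosome 11, 102110447 to 102233424) had 39 reads in knockdown cells and 44 reads in control cells, a ratio of 1.15 or 0.20 (−0.46 to 0.85). Both intervals hold 0. TEAD1 had 3 interior peaks in knockdown cells and 5 in control cells, and one of them had 27 reads in knockdown cells and 20 reads in control cells, with summits 19657 bp (knockdown) and 19390 bp (control) from the lower-coordinate end. YAP1 had 1 interior peak in knockdown cells, of 13 reads and 110701 bp from its lower-coordinate end, and none in control cells.

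**Figure D4:**
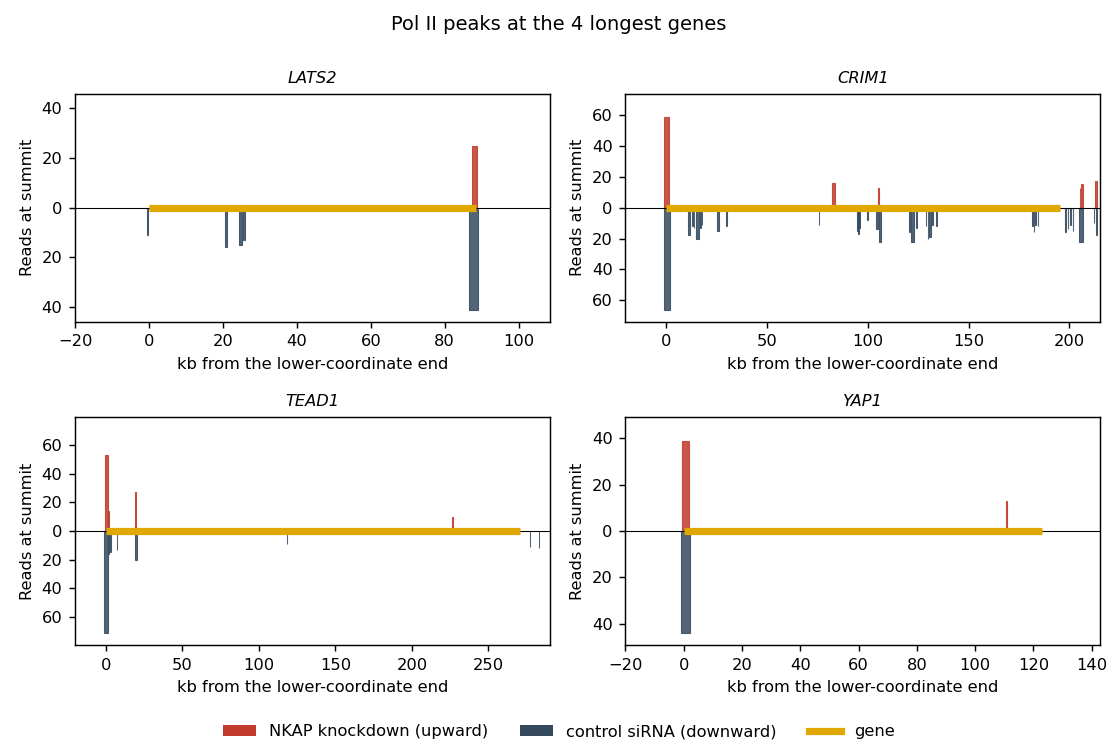
Pol II peaks around the 4 longest genes, drawn as in the map of the 6 shorter genes (kb from the lower-coordinate end; knockdown upward, control downward; block height is the reads at the summit). The strongest end peaks of each gene face each other in both lists, and the weak control peak of 11 reads near the 3′ end of LATS2 has none facing it. Inside CRIM1 there are 27 control and 2 knockdown peaks, and 1 of the 27 is overlapped.

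Over the 10 windows together, peaks covered 70164 bp in knockdown cells and 144430 bp in control cells, a ratio of 0.486, against 0.623 summed over all genes. Cover of the window was lower by 1.5 times or more at 7 of the 10 genes, where 53.4% of 15475 genes with control cover were, and higher at none, where 2.28% were. The median ratio was 0.458 over the 10 and 0.644 over all genes. CRIM1 had the lowest ratio of the 10, with 5487 bp in knockdown cells and 22079 bp in control cells (0.249). AJUBA, LATS2 and AMOTL2 followed, at 0.310, 0.313 and 0.343. AJUBA had 5644 bp in knockdown cells and 18186 bp in control cells, and LATS2 had 1390 bp in knockdown cells and 4434 bp in control cells. TEAD1 (0.454) and ANKRD1 (0.462) lay between these and AXL, which had 22300 bp in knockdown cells and 35479 bp in control cells (0.629). The 3 genes not lower by 1.5 times were CCN1 (0.820), CCN2, whose only peak is described above, and YAP1 (0.945), of which CCN1 and CCN2 are the shortest genes and YAP1 had 1 control peak in its window. Divided by place, the gene ends had a summed ratio of 0.792 against 0.751 over all genes, and the flanks 0.463 against 0.601. The interiors had 33631 bp in knockdown cells and 85729 bp in control cells, a ratio of 0.392 against 0.513. Interior cover was lower by 1.5 times or more at 7 of the 10, and at 70.3% of the 7982 genes with control interior cover, so that the count among the 10 was near the background. It was higher by 1.5 times at none of the 10 and at 4.41% of all. Among the 62 genes of 5000 bp or more with at least 90% of the interior covered in control cells, 9.68% had at most 33.3% covered in knockdown cells. ANKRD1, AMOTL2 and AJUBA were among them. This class was chosen after the values were seen and by control cover alone, which favours lower cover in knockdown cells. The median interior ratio was likewise 0.344 over the 10 and 0.379 over all genes.

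Most knockdown peaks of these windows were overlapped by a control peak, and most control peaks were not overlapped by a knockdown peak. Of 52 knockdown peaks 49 were overlapped by a control peak, or 94.2% (95% Wilson interval 84.4 to 98.0), against 82.8% over all knockdown peaks. The 3 exceptions were interior peaks of CRIM1 (16 reads), YAP1 (13 reads) and TEAD1 (10 reads). Among the 49 overlapped, 9 lay under the AXL control peak of 22333 bp and 8 under the AMOTL2 control peak of 14266 bp. The share thus counts several knockdown peaks under the same wide control peak. Of 90 control peaks 25 were overlapped by a knockdown peak, or 27.8% (19.6 to 37.8), against 54.2% over all control peaks. Without CRIM1, which held 35 of the 90, the share was 38.2%. With both lists brought to 26387 strongest peaks it was 45.5%, against 67.6% over all control peaks. By place, 71.4% of the 14 control peaks with a summit at a gene end were overlapped, 16.7% of the 54 in interiors and 27.3% of the 22 in flanks. By the same rule over all protein-coding genes, a peak counting once for each gene whose window it touches, the shares were 80.4% at gene ends, 38.5% in interiors and 51.4% in flanks. CRIM1 held 27 of the 54 interior peaks, and without it 29.6% of the other 27 were overlapped. The intervals cover counting error only, and neighbouring peaks of a gene are not independent.

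**Figure D5:**
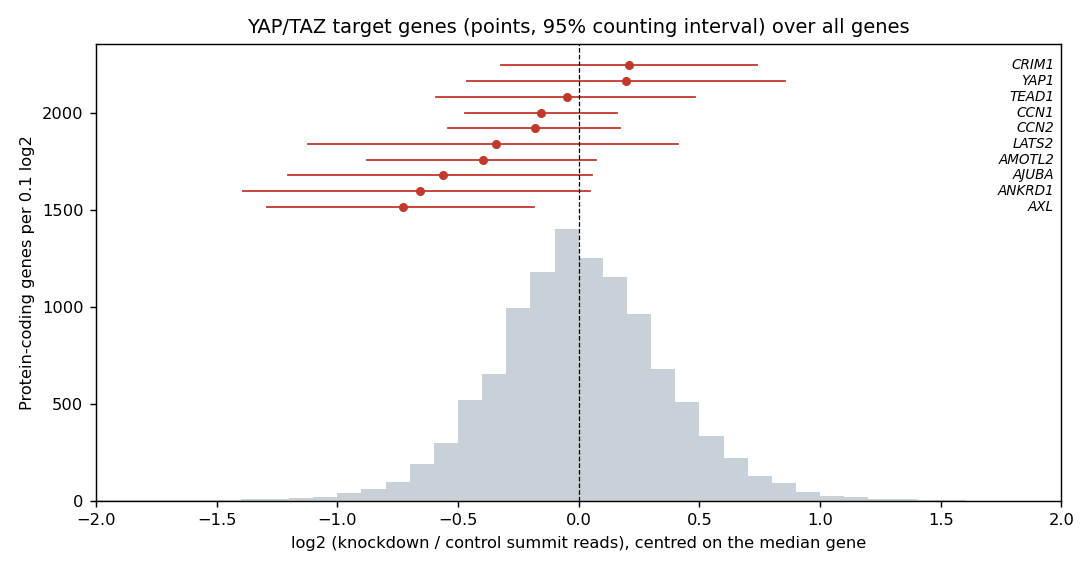
Histogram of the log2 ratio of knockdown to control gene-end summit reads over 10986 protein-coding genes, centred on their median (dashed line), with the 10 YAP/TAZ target genes as points and their 95% binomial intervals above it. 8 points lie left of the line, AXL farthest at −0.73, and CRIM1 (0.21) and YAP1 (0.20) lie right of it. The AXL value compares gene-end peaks that do not overlap.

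The other genes of the pathway were counted by the same rules. Of 15 further YAP/TAZ targets, 9 had a gene-end peak in knockdown cells and 13 in control cells. MYOF, ASAP1, CCDC80 and RBMS3 had one in control cells only, with 25, 43, 18 and 17 reads. Over all protein-coding genes with a control peak at a gene end, 91.9% also had a knockdown peak. The median ratio of the 9 genes with both was 0.844 relative to the median gene. It leaves out the genes with a control peak only. For the 10 genes above, which all had both peaks, it was 0.834. NUAK2, a kinase gene, was lowest with 11 reads in knockdown cells and 33 reads in control cells, a ratio of 0.431 or −1.21 (−2.35 to −0.19). TGFB2, which encodes a transforming growth factor, had 29 reads in knockdown cells and 68 reads in control cells, a ratio of 0.552. F3, the tissue factor gene, was highest with 21 reads in each and a ratio of 1.29.

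Upstream, 14 of 19 Hippo kinases, scaffolds and regulators had a gene-end peak in each list, and the 13 with both had a median ratio of 0.965. DCHS1, an atypical cadherin, had one in knockdown cells only (16 reads) and FAT4, its partner, in control cells only (16 reads). WWC1, the scaffold known as KIBRA, was highest with 28 reads in knockdown cells and 17 reads in control cells, a ratio of 2.13 or 1.09 (0.17 to 2.05). LATS1, the paralogue of LATS2, was lowest with 51 reads in knockdown cells and 97 reads in control cells, a ratio of 0.68 or −0.56 (−1.07 to −0.05). WWC1 and LATS1, like NUAK2 above, were named as the extremes of their lists. Their intervals were not adjusted for that choice. Of 6 nuclear partners, 4 had a peak in knockdown cells and 5 in control cells, VGLL4 in control cells only with 28 reads. Their ratios ran from 0.796 (TEAD2) to 1.2 (VGLL3).

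The labels call U2OS epithelial cells from bone. Of 10 mesenchymal and osteoblast markers 7 had a gene-end peak in each list, and RUNX2, COL1A2 and ALPL had none. Of these 7, COL1A1, FN1 and CDH2 were lower by 1.5 times or more and none was higher. Over all genes 4.6% were lower and 5.38% higher by that much. COL1A1 had 22 reads in knockdown cells and 85 reads in control cells. CDH2 had 13 reads in knockdown cells and 29 reads in control cells, and its interval held 0 (−1.85 to 0.20). Whether these marker values bear on the values of the 10 genes was not tested. Of 8 epithelial markers 2 had one in each list, KRT8 and KRT18, whose values came from the same peak, and EPCAM and CDH1 had none. Of 8 blood markers 1 had one in each list, SPI1. In bulk cells fewer cells with Pol II at a gene and less Pol II per cell cannot be told apart.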

How the data were processed

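Pol II ChIP-seq peak lists of 2 libraries were used, 1 from NKAP knockdown and 1 from control siRNA cells. The 2 input libraries were not analysed here. The submitters' processing notes name hg38, bcl2fastq 2.17, Trimmomatic 0.33, Bowtie 1.1.2 and MACS2 2.1.0, without settings. Peaks were called by the authors per library. The deposited columns give per peak a score, the fold enrichment over background, the −log10 p-value and the −log10 q-value, whose minimum was 3.02 (knockdown) and 3.01 (control).

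The caller's fold is (pileup + 1)/(background + 1) and its p-value a Poisson tail, so reads and background at each summit were solved from both. Whole reads came out for 100% of peaks (within 0.001 in −log10 p), with knockdown pileups scaled by 0.926. The method was tested on simulated data. The depth ratio came from the genome-wide backgrounds, each divided by the smallest peak width, and that scale. On chromosomes 1 to 22 and X there were 26387 (knockdown) and 36345 (control) peaks, with a median of 19 (knockdown) and 18 (control) summit reads. Gene limits came from the RefSeq gene table, used without strand, and peaks overlapped from 1 bp. All 10 members are named, and of the other lists the genes with a gene-end peak in 1 list only and those with the highest and lowest ratio. TGFB2, COL1A1, FN1 and CDH2 were named after their values were seen. Python 3.11.15, scipy 1.17.1 and pandas 2.3.3 were used. The members and lists were chosen with earlier results of these data known.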

Additional observations from a re-analysis of the deposited data

How the results depend on the processing

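All 10 genes kept a gene-end peak in both lists under every alternative run for it. The ratio of covered length ran from 0.457 (the genes alone) to 0.537 (equal numbers of strongest peaks). The median log2 ratio of summit reads was −0.26, and was −0.18 where only overlapping gene-end peaks were compared (9 genes, without AXL), −0.41 with the depth ratio as the scale and −0.63 without scaling. The count of genes lower by 1.5 times was 2, and became 5 without scaling, 3 with the depth ratio (AJUBA, at −0.71, was added), 1 where only overlapping gene-end peaks were compared and 1 with the strongest peak in the gene. The control peaks in the windows numbered 90, and 55 with equal numbers of strongest peaks or without CRIM1. The share of them overlapped was 27.8%, and 45.5% with equal numbers, 38.2% without CRIM1 and 10.0% where 50% of both peaks had to be shared. The strongest peak in the gene and the run without CRIM1 were chosen after the data were seen. CRIM1 and YAP1 were above the median gene under centring and below 0 without scaling, at −0.16 and −0.17. The CRIM1 interior held control peaks of 8 to 22 reads, and the lowest summits called had 8. With the control list brought to the knockdown depth, 85 control peaks remained and 29.4% of them were overlapped. The ratio of covered length was then 0.493. That run thins the control list by its summits only, so whether depth accounts for the missing knockdown peaks was not tested. No paired analysis was possible because each group held 1 library.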

Other observations

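Genes nearly filled with Pol II peaks in control cells were looked at after the interiors of ANKRD1, AMOTL2 and AJUBA had been seen. Of 16814 protein-coding genes of 5000 bp or more, 62 had at least 90% of the interior covered in the control list. Over these 62 the median cover was 70.8% in knockdown cells and 96.2% in control cells. They were chosen by high control cover alone, so lower cover in knockdown cells is in part built into the choice. At 6 of the 62, or 9.68%, it was at most 33.3% in knockdown cells. These 6 were AJUBA, AMOTL2 and ANKRD1 together with THBS1, CALR and GNB2. THBS1, the thrombospondin gene and itself often named as a YAP/TAZ target, had 4.36% of its interior covered in knockdown cells and 92.9% in control cells. CALR, an endoplasmic reticulum chaperone gene, had 0% in knockdown cells and 100% in control cells, and GNB2, a G protein subunit gene, 14.8% in knockdown cells and 94.8% in control cells. The group and its cutoffs were chosen after the values were seen, so these counts describe the 2 libraries and are no test.

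Of the 520 genes with at least 100 reads at the control summit, 9.23% were lower by 1.5 times or more in knockdown cells relative to the median gene. Their median ratio was 0.916, or −0.13 on the log2 scale. They were chosen by high control reads alone, so lower ratios are in part built into the choice. CCN1 and CCN2, with ratios of 0.898 and 0.881, lay close to that median. AMOTL2 had a lower ratio, 0.759, but its interval (−0.88 to 0.07) held that median.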
